A study of Mus musculus with 2 samples.

Results

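The nuclear receptors described here are the 30 members of the family, other than the receptors for oestrogen, androgen, progesterone, glucocorticoid and mineralocorticoid, that were taken by gene symbol from a matrix of 32285 genes of the mouse hypothalamus. The rule used symbols and no measured value, although the receptors were chosen with earlier results of these data known. All 30 had at least 1 transcript. The matrix is 1 single-nucleus RNA-sequencing library made on the 10x platform, with a second library that holds the counts of 2 antibody tags (hashtags) for the same nuclei. Nuclei came from adult male, wild-type C57BL/6J mice aged 10 to 12 weeks, were sorted after staining for NeuN, which marks the nuclei of neurons. The labels name the tissue as the arcuate nucleus (ARC), a hypothalamic region that regulates feeding and pituitary hormones. The hashtags themselves are named ARC and PVH in the deposited feature list, PVH being the usual abbreviation of the paraventricular nucleus, and the groups below are therefore called ARC-hashtag and PVH-hashtag nuclei. All animals were pooled without a tag of their own, so that each group is 1 sample. The intervals given are exact 95% intervals for counting error only, and differences between animals, dissections or staining reactions cannot be told apart from differences between regions.

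Nuclear receptors are transcriptional regulators that have, in most members, a zinc-finger DNA-binding domain and a pocket that binds a small lipid-soluble ligand. Thyroid hormone, retinoic acid, vitamin D and oxysterols each act through receptors of this family, which usually bind DNA as heterodimers with a retinoid X receptor. Other members, called orphans, have no established natural hormone and act in cell identity, metabolism or the circadian clock. In the hypothalamus, thyroid hormone receptors are known for the feedback of the thyroid axis, and steroidogenic factor 1 (*Nr5a1*) for the formation of the ventromedial nucleus.

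Of 11409 barcodes, 10170 nuclei passed the filters on genes, counts and mitochondrial reads, and 6841 of these were called for exactly 1 hashtag. The call is a threshold on counts: ARC-called nuclei had medians of 95 ARC-hashtag and 77 PVH-hashtag counts, and PVH-called nuclei 49 and 125. A nucleus is said below to carry a hashtag where it was called for it. Among the single-hashtag nuclei 6811 were in 20 neuron clusters and 30 in a cluster of the oligodendrocyte lineage. The neurons comprised 3749 ARC-hashtag and 3062 PVH-hashtag nuclei, with medians of 4828 and 5039 unique molecular identifiers (UMIs, each counting 1 captured transcript) per nucleus. Levels are given as UMIs summed over a group per 1000000 of its UMIs (CPM). The hashtags met their names in part: *Sim1*, a transcription factor of the paraventricular nucleus, was at 109 CPM with the PVH hashtag and 10.6 CPM with the ARC hashtag, whereas *Agrp* was at 152 and 174 CPM. *Agrp* lay between 107 and 280 CPM in every neuron cluster, from 3377 ARC-hashtag and 2533 PVH-hashtag UMIs. Several receptors described below were at 0 to 3 UMIs in whole clusters. These receptors had fewer UMIs in all than *Agrp*, so the contrast does not compare like counts. In the AGRP-like, POMC-like, KNDy-like and GHRH-like clusters, named from markers of arcuate neurons, 25 of 1488 nuclei carried the PVH hashtag, and in the 4 PVH-like clusters 71 of 956 carried the ARC hashtag. *Rbfox3*, which encodes NeuN, was at 240 CPM in ARC-hashtag and 237 CPM in PVH-hashtag neurons.

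The receptors spanned a wide range of counts. In neurons 12 of the 30 had more than 1000 UMIs, 24 had at least 100, 2 had between 50 and 99 and 4 had fewer than 50. The most counted were *Rora* (22218 UMIs), *Esrrg* (8485), *Nr6a1* (6599), *Thrb* (6091), *Rorb* (4999), *Thra* (4658) and *Nr2c2* (4313). The least counted were *Nr2e1* (18 UMIs), *Vdr*, the vitamin D receptor (23), *Nr5a1* (25) and *Nr0b1* (28). Across the 30 genes the UMI count went with the length of the gene from first to last base (Spearman's rho 0.48, Pearson's r 0.51 on log10 values), a description over genes that share 1 library. The sources used here do not give whether intronic reads were counted, so levels are compared below for each gene across nuclei and not between genes. Where receptors of a subfamily are given as shares of their summed UMIs, the shares follow gene length too, and only their change between clusters is described. In the GENCODE M21 annotation of GRCm38, 17 of the 30 overlap another annotated gene and 15 a gene on the opposite strand, and they do not give whether the counting used strand. The overlaps include *Thra* with *Nr1d1*, *Nr5a1* with *Nr5a1os*, *Nr2f1* with A830082K12Rik, *Nr2f2* with B130024G19Rik, *Rarb* with *Top2b* and *Nr6a1* with *Nr6a1os* and a microRNA pair.

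To ask whether the receptors separate the neuron classes, nuclei of both hashtags were clustered with the 30 genes removed from the variable genes, and each gene's level in its highest cluster was set against all other neurons. At least 100 UMIs in neurons were required, which 24 receptors had. Of these, 10 were at least 3-fold higher in their highest cluster, beside 9.88% of the 14075 genes tested in the same way. The median fold was 2.21 for the 24 receptors and 1.54 for all genes. The 10 were *Nr5a2*, *Rorb*, *Hnf4g*, *Rarb*, *Rxrg*, *Thrb*, *Nr2f2*, *Rara*, *Pparg* and *Nr2f1*. Their highest clusters carried the ARC hashtag in nearly all nuclei (PVH hashtag under 5%) for 5 of the 10, carried the PVH hashtag in over 90% of nuclei for 3, and were mixed for 2. Of the 20 neuron clusters themselves, 9 were of the first kind and 5 of the second. For *Nr5a2*, *Rorb*, *Rara* and *Thrb* the interval of the ratio to the second-highest cluster lay above 1, which was not counted over all genes. At the other end, *Nr2c2*, *Thra*, *Nr6a1*, *Nr2c1* and *Esrra* were less than 1.5-fold higher in their highest cluster, and the remaining 9 lay between these bounds. The highest of 20 clusters is raised by counting error where UMIs are few, as for *Hnf4g* (105 UMIs) and *Pparg* (156). When ARC-hashtag nuclei were clustered alone, 5 of 18 receptors were at least 3-fold concentrated, beside 6.08% of the 12453 genes tested there. *Thrb*, *Rarb* and *Hnf4g* were then at 2.76-, 2.60- and 2.44-fold, *Nr5a2* was at 7.55-fold and *Nr2f2* at 11.9-fold. At the coarser clustering resolution of 0.3, 7 of 24 receptors were at least 3-fold concentrated, which was not counted over all genes. *Rorb*, *Thrb* and *Hnf4g* were then at 2.38-, 2.82- and 2.9-fold.

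**Figure D1:**
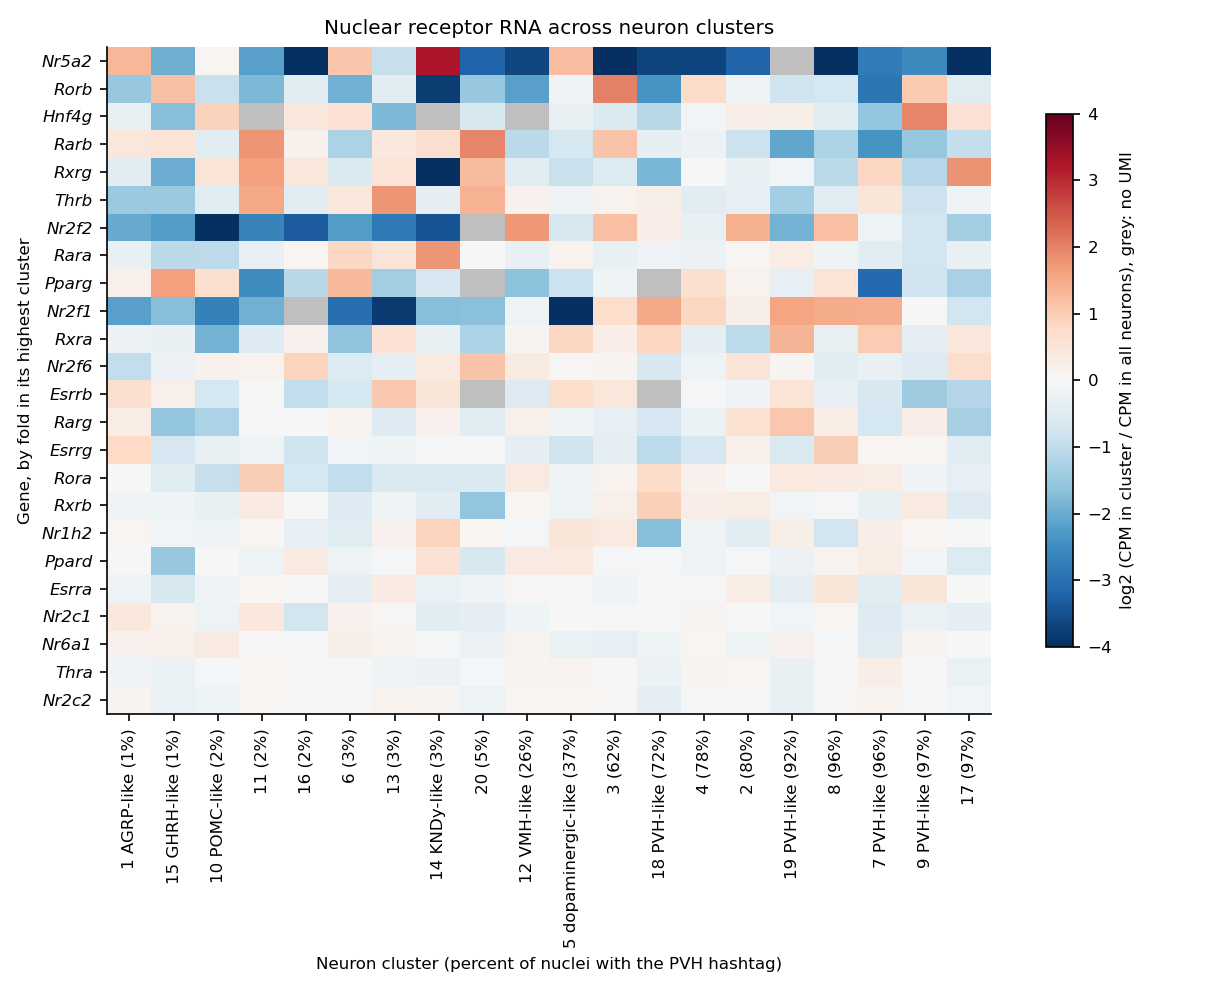
Level of the 24 receptors with at least 100 UMIs (rows) in 20 neuron clusters (columns, ordered by the percentage of nuclei with the PVH hashtag), as log2 of the CPM in the cluster over the CPM in all neurons. Colours end at 4 on either side and grey marks a cluster without a UMI. *Nr5a2* stands out in the KNDy-like cluster and *Nr2f1* and *Nr2f2* are blue or grey in the 9 clusters with under 5% PVH-hashtag nuclei and vary in the others, while the lowest rows, from *Esrra* to *Nr2c2*, are nearly colourless.

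The thyroid hormone receptors α and β, encoded by *Thra* and *Thrb*, differed in how evenly they were found. *Thra* lay between 105 CPM (PVH-like cluster 19) and 154 CPM (PVH-like cluster 7) in every neuron cluster. *Thrb* ranged from 60.0 CPM (52.8 to 67.9) in the AGRP-like cluster to 577 CPM (535 to 621) in the unnamed GABAergic cluster 13, with 489 CPM in cluster 11 and 442 CPM in cluster 20. Clusters 11, 13 and 20 thus stood apart from the other 17, of which the highest was PVH-like cluster 7 at 234 CPM. Cluster 13 is led by genes such as *Pth2r* and *Unc13c*, cluster 11 by *Htr3b* and *Vgll3*, and cluster 20, which is glutamatergic, by *Smoc2* and *Ntng2*. A *Thrb* UMI was found in 88.8% of nuclei of cluster 13 and in 19.1% of AGRP-like nuclei. After each nucleus was thinned to 1000 UMIs the shares were 48.3% (41.9 to 54.8) and 5.16% (3.71 to 6.95).

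Expressed as a share of the UMIs of both genes, *Thrb* accounted for 56.7% over all neurons. The share was 83.3% (80.6 to 85.8) in cluster 13, 78.2% in cluster 11 and 77.9% in cluster 20. It was 33.8% (30.4 to 37.3) in AGRP-like neurons, 36.2% in GHRH-like neurons and 38.5% in PVH-like cluster 19. The genes that supply thyroid hormone to cells were mostly few in UMIs in these nuclei. Of the list of 8 such genes, 2 had at least 50 UMIs, and neither differed by 1.5-fold between the hashtags. *Slc16a10*, which encodes the transporter MCT10, had 561 UMIs. *Dio2*, the deiodinase that activates thyroid hormone and is known from tanycytes and astrocytes, had 32 UMIs, *Dio1* had 3 and *Dio3* had 0. *Slc16a10* was highest in cluster 20, at 52.4 CPM against 15.0 CPM in the other neurons.

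Of the retinoid-related orphan receptors, *Rora* was found widely. *Rorb* was found in every neuron cluster too, with a median of 82.5 CPM over clusters, but far less evenly. RORα acts in cerebellar development and RORβ in retina and cortex, and both bind DNA as monomers. *Rora* ranged from 309 CPM in cluster 6 to 1207 CPM (1148 to 1269) in cluster 11, followed by 1022 CPM in PVH-like cluster 18. Even in cluster 6, 62.4% of nuclei had a *Rora* UMI. *Rorb* ranged from 10.0 CPM (5.01 to 18.0) in the KNDy-like cluster to 563 CPM (535 to 593) in cluster 3, with 312 CPM in the GHRH-like cluster and 288 CPM in PVH-like cluster 9. These 3 clusters held a *Rorb* UMI in 69.3%, 63.2% and 46.1% of their nuclei, against 3.20% of KNDy-like nuclei. As a share of the UMIs of *Rora* and *Rorb*, *Rorb* took 45.2% in cluster 3 and 41.7% in the GHRH-like cluster but 2.39% in PVH-like cluster 7.

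Cluster 3 also held RNA of other cell types. The summed level of the 5 astrocyte markers was 120 CPM there, and between 6.21 and 87.2 CPM in the other neuron clusters, with no marker at 0 over all neurons. Its median depth of 4270 UMIs was below that of the other neuron clusters, which began at 4504. Of its 580 nuclei, 45 had a UMI of *Slc1a3*, *Aqp4*, *Gja1* or *Agt*. The remaining astrocyte marker, *Slc4a4*, was not used although it was at least 1.5-fold raised in cluster 3. So were the tanycyte markers *Rax*, *Gpr50*, *Col23a1* and *Frzb* and some markers of microglia and endothelial cells. The nuclei without these astrocyte UMIs are thus not shown to be free of non-neuronal RNA. The remaining 535 nuclei had *Rorb* at 566 CPM (537 to 597), and the 45 had it at 508 CPM. *Rora* was at 645 CPM in the 535 nuclei and at 1329 CPM in the 45. *Nr2e1*, known as Tlx and active in neural stem cells, had 12 of its 18 UMIs in cluster 3, and none of them lay in the 45 nuclei. *Ppara*, a receptor for fatty acids, had 6 UMIs in this cluster, of which 4 were in the 45 nuclei.

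Of the retinoic acid receptor genes, *Rarb*, which encodes RARβ, is itself switched on by retinoic acid. It was at 129 CPM (100 to 163) in cluster 20, 114 CPM (96.5 to 134) in cluster 11 and 74.6 CPM in cluster 3, against 6.52 CPM (3.47 to 11.1) in PVH-like cluster 7. The intervals of clusters 20 and 11 overlapped, so their order is not resolved. *Rara* was highest in KNDy-like neurons, at 25.6 CPM (17.0 to 36.9) against 7.01 CPM in the other neurons. *Rarg* ranged from 4.51 to 27.6 CPM. Its interval in the highest cluster, PVH-like cluster 19, overlapped the next, and the fold over the other neurons was 2.17 (1.38 to 3.27). Among the 13 genes of retinoid supply, 4 had at least 100 UMIs and 1 of these was at least 3-fold concentrated (9.88% of all genes). That gene was *Crabp1*, which encodes a cytosolic retinoic acid carrier and was at 54.4 CPM in cluster 11 and 7.10 CPM in the other neurons. *Aldh1a2* and *Cyp26a1*, for a synthesizing and a degrading enzyme, had 0 UMIs in neurons. The other enzyme genes on the list were detected. *Rdh10* had 335 UMIs, *Aldh1a1* 142, *Dhrs3* 87, *Cyp26b1* 33, *Aldh1a3* 10 and *Cyp26c1* 2. Between the hashtags, 6 of the 13 had at least 50 UMIs and *Crabp1* alone was called, 2.27-fold lower with the PVH hashtag. Over all genes 5.31% were called lower.

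The 3 retinoid X receptors together ranged from 13.7 CPM (7.66 to 22.6) in KNDy-like neurons to 113 CPM (94.8 to 135) in cluster 17. The share of *Rxrg* in their UMIs ran from 13.3% in KNDy-like neurons to 92.5% in cluster 20. *Rxrg* was at 99.5 CPM (82.0 to 120) in cluster 17, a glutamatergic cluster with *Sim1* and *Sim2*, at 89.4 CPM in cluster 11 and at 69.2 CPM in cluster 20, and only 2 UMIs were found in KNDy-like neurons (1.82 CPM, 0.22 to 6.59). *Rxrb* ranged from 3.74 to 21.7 CPM and *Rxra* from 1.21 to 11.5 CPM. In both, the interval of the highest cluster overlapped that of the next. Clusters 11 and 20 were thus among the 3 highest for *Thrb*, *Rarb* and *Rxrg*. At 1000 UMIs per nucleus, a UMI of any retinoid X receptor was present in 10.9% (7.40 to 15.2) of nuclei of cluster 11 and in 2.58% (1.58 to 3.95) of AGRP-like nuclei.

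**Figure D2:**
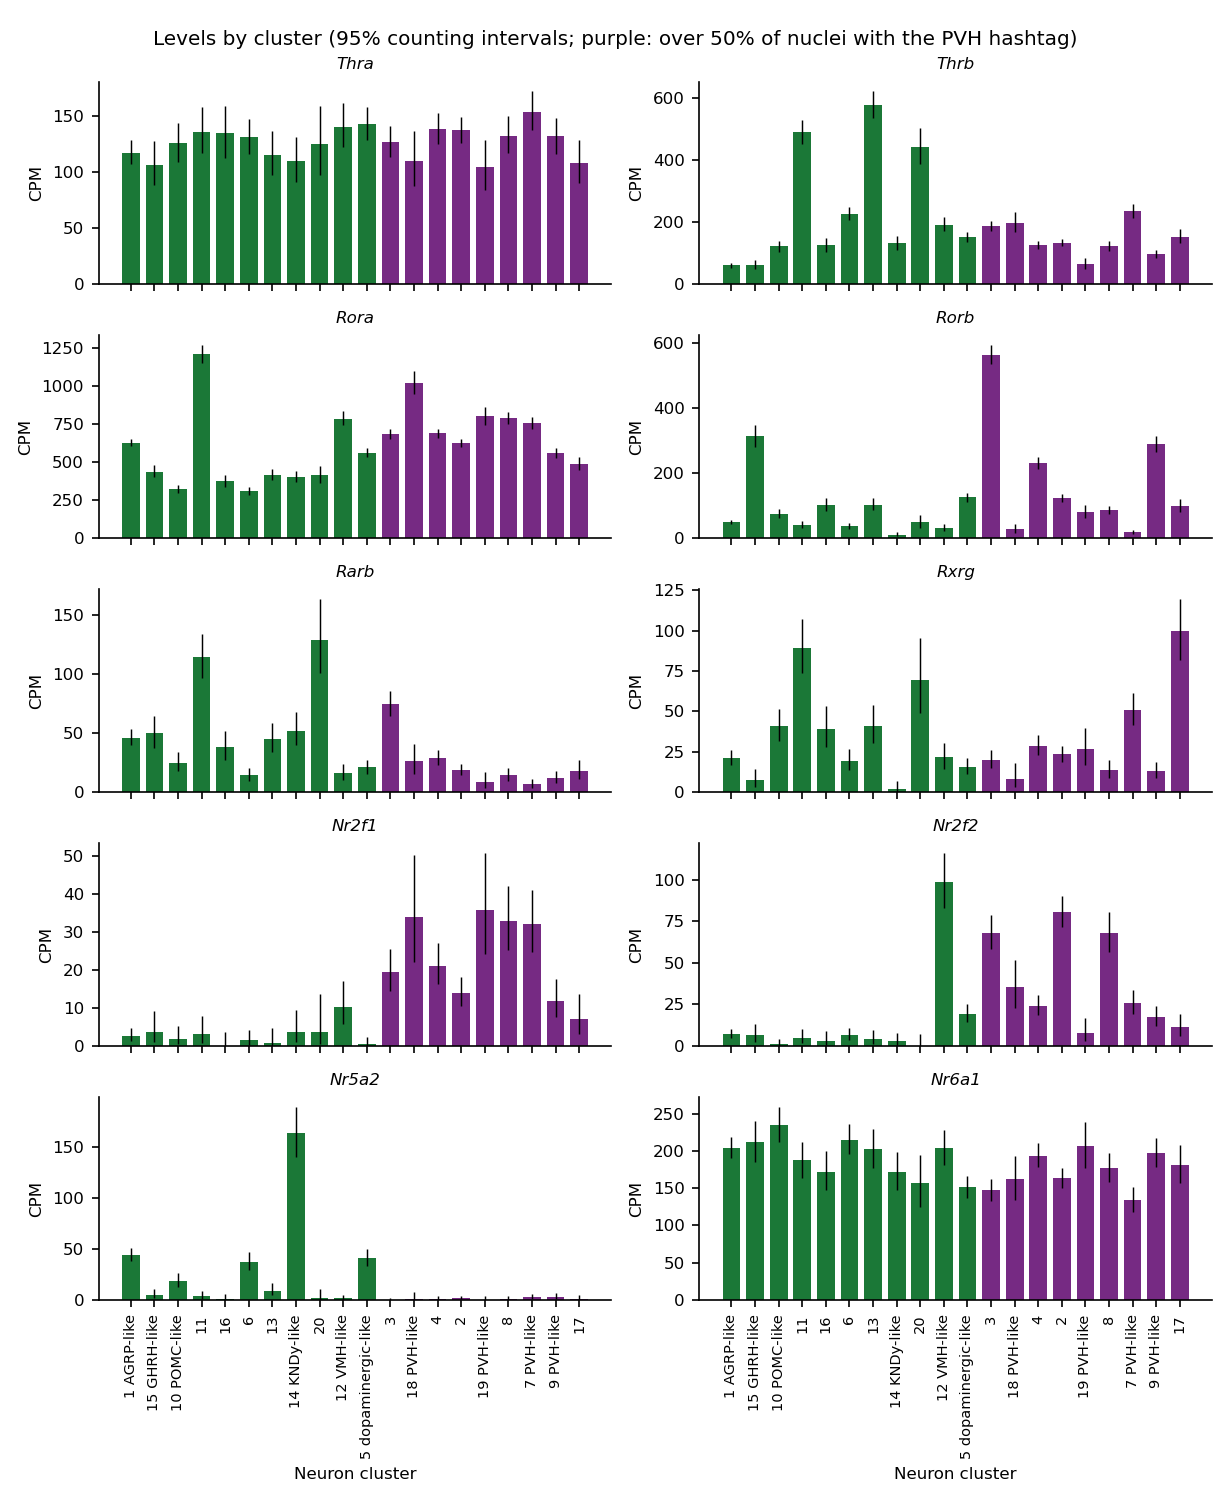
Level of 10 receptors in each neuron cluster, in CPM of summed UMIs with exact 95% counting intervals, clusters ordered by the percentage of nuclei with the PVH hashtag (purple where it is over 50%). *Thra* and *Nr6a1* are nearly level, *Thrb* is highest in cluster 13, *Rarb* in cluster 20 and *Rxrg* in cluster 17, with cluster 11 next in each, and *Nr5a2* reaches 163 CPM in KNDy-like neurons.

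The NR5A receptors bind DNA as monomers and are known from steroid-producing tissues, liver and early embryos. *Nr5a2*, which encodes LRH-1, was at 163 CPM (140 to 189) in KNDy-like neurons, the arcuate neurons that make neurokinin B and dynorphin and drive gonadotropin secretion. The next clusters were the AGRP-like (44.0 CPM), the dopaminergic-like (41.0 CPM) and cluster 6 (37.3 CPM), and 15 of 20 clusters were under 10 CPM. KNDy-like neurons exceeded all other neurons 12.8-fold (10.7 to 15.2), or 7.55-fold among ARC-hashtag nuclei clustered alone, and held 28.6% of all *Nr5a2* UMIs. A UMI was present in 44.7% of KNDy-like nuclei (median depth 4591 UMIs) and in 0.17% of nuclei of cluster 3 (median 4270). After thinning to 1000 UMIs the shares were 13.2% (9.05 to 18.5) and 0 of 579 nuclei, where the exact interval reaches 0.635% and 3 counts would be 0.518%. These bounds are for nuclei with a UMI and not for nuclei that express the gene. *Nr5a1*, named above for the ventromedial nucleus, had 20 of its 25 UMIs in the VMH-like cluster, at 13.8 CPM (8.42 to 21.3), and 14 clusters had none. Both *Nr5a1* and its antisense neighbour *Nr5a1os* led the genes of that cluster, which had been named from other markers. *Nr5a1* was thus too sparse for the comparisons between hashtags. On chromosome 2 it lies 8827 bases from *Nr6a1*, the germ cell nuclear factor, which was nearly even across clusters at 134 to 234 CPM.

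The COUP transcription factors are orphans that act in regional patterning and neuronal migration. Their highest clusters differed, being VMH-like and unnamed for *Nr2f2* and mostly PVH-like for *Nr2f1*. *Nr2f2* (COUP-TFII) was at 98.5 CPM (83.04 to 116) in the VMH-like cluster, 80.4 CPM in cluster 2, 68.0 CPM in cluster 3 and 67.8 CPM in cluster 8, and below 10 CPM in 10 clusters. The interval of the ratio between the first and second of these just reached 1. *Nr2f1* (COUP-TFI) was at 35.7 CPM in PVH-like cluster 19, 34.0 CPM in PVH-like cluster 18, 32.8 CPM in cluster 8 and 32.1 CPM in PVH-like cluster 7, which are not distinguished by their intervals, and below 5 CPM in 10 clusters. The balance of the pair differed between clusters. *Nr2f2* took 90.5% (84.8 to 94.6) of their UMIs in the VMH-like cluster, 85.3% in cluster 2 and 18.4% (7.74 to 34.3) in PVH-like cluster 19. The third member, *Nr2f6*, ranged from 2.14 to 9.35 CPM with overlapping intervals.

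Of the estrogen-related receptors, orphans that act in mitochondrial metabolism, *Esrrg* was at 461 CPM (432 to 493) in cluster 8, a GABAergic cluster with *Meis2* and *Pax6*, and at 410 CPM (391 to 430) in AGRP-like neurons. Its lowest level was 113 CPM, in PVH-like cluster 18. *Esrra* lay between 19.8 and 43.3 CPM and *Esrrb* between 0 and 8.31 CPM. The testicular receptors *Nr2c1* and *Nr2c2* were even, at 17.9 to 39.6 CPM and 93.8 to 131 CPM.

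The lipid-sensing receptors had low counts in neurons. *Ppard* lay between 8.12 CPM in GHRH-like and 34.7 CPM in KNDy-like neurons, and the 30 oligodendrocyte-lineage nuclei had it at 80.8 CPM from 13 UMIs. *Pparg*, the receptor of adipocyte differentiation, was at 13.5 CPM (7.57 to 22.3) in GHRH-like neurons and 10.7 CPM in cluster 6. Its fold over the other neurons was 3.35 (1.83 to 5.72). *Hnf4g*, a hepatocyte nuclear factor, was at 11.4 CPM (7.22 to 17.1) in PVH-like cluster 9 and 2.41 CPM in the other neurons, 4.73-fold higher (2.84 to 7.58). The liver X receptor β, *Nr1h2*, lay between 2.72 and 16.4 CPM, and *Nr1h3*, liver X receptor α, had 56 UMIs. Of the 10 targets of lipid receptors on the list, 7 had at least 100 UMIs and 1 was concentrated (9.88% of all genes). This was *Abca1*, a cholesterol exporter at 39.4 CPM in POMC-like neurons. Between the hashtags, 8 of the 10 had at least 50 UMIs. *Cpt1a*, for fatty acid entry into mitochondria, was 1.93-fold higher with the PVH hashtag and *Abca1* 2.23-fold lower. Over all genes 5.53% were called higher and 5.31% lower. *Ppara* (51 UMIs), *Vdr* and *Nr0b1* (the corepressor DAX-1) did not exceed 4.51 CPM in any neuron cluster. For vitamin D, the activating enzyme gene *Cyp27b1* had 2 UMIs and *Cyp24a1*, a classical target, had 1. Of the 4 genes on the vitamin D list 2 had at least 50 UMIs, and *Lrp2*, an endocytic receptor for its carrier protein, was 1.79-fold lower with the PVH hashtag.

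PVH-hashtag and ARC-hashtag neurons were compared next. Of the 26 receptors with at least 50 UMIs, 5 were at least 1.5-fold higher with the PVH hashtag, beside 5.53% of the 15814 genes tested, and 3 were at least 1.5-fold lower, beside 5.31%. The median log2 ratio was 0.05 for the receptors and -0.05 for all genes. Higher were *Nr2f1*, *Nr2f2*, *Ppara*, *Rxra* and *Rorb*, and lower were *Nr5a2*, *Rarb* and *Thrb*. The other 18 differed by less than 1.5-fold.

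*Nr2f1* was at 21.5 CPM (358 UMIs) in PVH-hashtag and 3.55 CPM (69 UMIs) in ARC-hashtag neurons, 6.05-fold higher, with a log2 ratio of 2.60 (2.22 to 2.99). *Nr2f2* was at 50.5 and 11.8 CPM, 4.26-fold higher, with a log2 ratio of 2.09 (1.88 to 2.31). Both intervals lay well beyond a 1.5-fold difference. *Nr5a2* was at 3.24 CPM with the PVH hashtag and 29.5 CPM with the ARC hashtag, 9.08-fold lower, with a log2 ratio of -3.18 (-3.61 to -2.78). *Rarb* was at 19.0 and 46.2 CPM, 2.43-fold lower, with a log2 ratio of -1.28 (-1.47 to -1.09).

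These are the 4 receptors that differed by over 2-fold, and their proximal promoters are shown because they are the members the hashtag comparison turns on. Each run is the 250 bases before the most upstream start in a RefSeq promoter table of build GRCm38.p6, read 5′ to 3′ on the strand of the gene, which is the minus strand for all 4. Capitals mark the hexamer AGGTCA, the site that most of the family recognizes, and the direct repeat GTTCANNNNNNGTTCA, the spacing of the classical retinoic acid response element. Both were searched on both strands, and they do not overlap here.

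Nr2f1, chr13:78198874-78199123: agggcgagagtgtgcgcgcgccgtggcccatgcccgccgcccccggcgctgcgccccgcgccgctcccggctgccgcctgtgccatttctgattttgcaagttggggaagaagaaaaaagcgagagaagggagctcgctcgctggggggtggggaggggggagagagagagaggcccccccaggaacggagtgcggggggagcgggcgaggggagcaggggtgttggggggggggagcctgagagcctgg

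Nr2f2, chr7:70366747-70366996: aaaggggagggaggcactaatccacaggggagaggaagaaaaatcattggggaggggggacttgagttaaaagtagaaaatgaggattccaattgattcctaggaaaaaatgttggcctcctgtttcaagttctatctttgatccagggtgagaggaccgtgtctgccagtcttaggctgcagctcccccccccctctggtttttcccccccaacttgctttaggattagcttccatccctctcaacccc

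Nr5a2, chr1:136960449-136960698: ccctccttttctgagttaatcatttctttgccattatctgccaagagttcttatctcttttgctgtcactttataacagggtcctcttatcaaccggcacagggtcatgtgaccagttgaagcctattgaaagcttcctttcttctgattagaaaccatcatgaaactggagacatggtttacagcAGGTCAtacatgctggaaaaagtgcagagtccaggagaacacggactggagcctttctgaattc

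Rarb, chr14:16575477-16575726: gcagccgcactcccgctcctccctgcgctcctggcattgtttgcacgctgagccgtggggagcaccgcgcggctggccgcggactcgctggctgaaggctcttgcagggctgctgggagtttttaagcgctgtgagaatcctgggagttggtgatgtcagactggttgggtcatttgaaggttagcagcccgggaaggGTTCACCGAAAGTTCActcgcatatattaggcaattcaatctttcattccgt

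The direct repeat is in the *Rarb* promoter, ending 36 bases before the start, and in 22 of the 32851 promoters of the table (0.067%). No other of the 27 receptors with an entry holds it in this window. The runs of *Rarb* and *Nr2f1* lie inside the genes as GENCODE draws them, from 16430839 to 16819156 and from 78188973 to 78199757. The *Nr5a2* promoter holds AGGTCA once, 58 bases before its start. That hexamer is in 14.02% of all promoters and in 9 of the 46 promoters of the 27 receptors (19.6%), which belong to *Nr0b1*, *Nr5a2*, *Nr6a1*, *Pparg*, *Rarg*, *Rxra*, *Rxrg* and *Thrb*. *Rarb*, *Nr2f1* and *Nr2f2* do not hold it in the 250 bases shown. These matches describe the letters and not the binding of a factor.

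The remaining differences were closer to the 1.5-fold bound. *Thrb* was at 133 CPM with the PVH hashtag and 200 CPM with the ARC hashtag (log2 ratio -0.59, -0.66 to -0.51, and -0.43 with the stricter hashtag call), while *Thra* was at 132 and 127 CPM (log2 ratio 0.06, -0.02 to 0.15). *Rorb* was at 170 and 112 CPM, 1.51-fold higher (log2 ratio 0.60, 0.52 to 0.68). *Rxra* (93 and 68 UMIs) had a log2 ratio of 0.67 (0.21 to 1.15). *Ppara*, with 30 and 21 UMIs, had a log2 ratio of 0.74 whose interval (-0.12 to 1.61) includes 0. Just inside that bound lay *Pparg* (log2 ratio -0.57, -1.07 to -0.09) and *Rara* (-0.50, -0.87 to -0.14). *Rora* was 1.23-fold higher with the PVH hashtag, at 684 against 558 CPM.

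**Figure D3:**
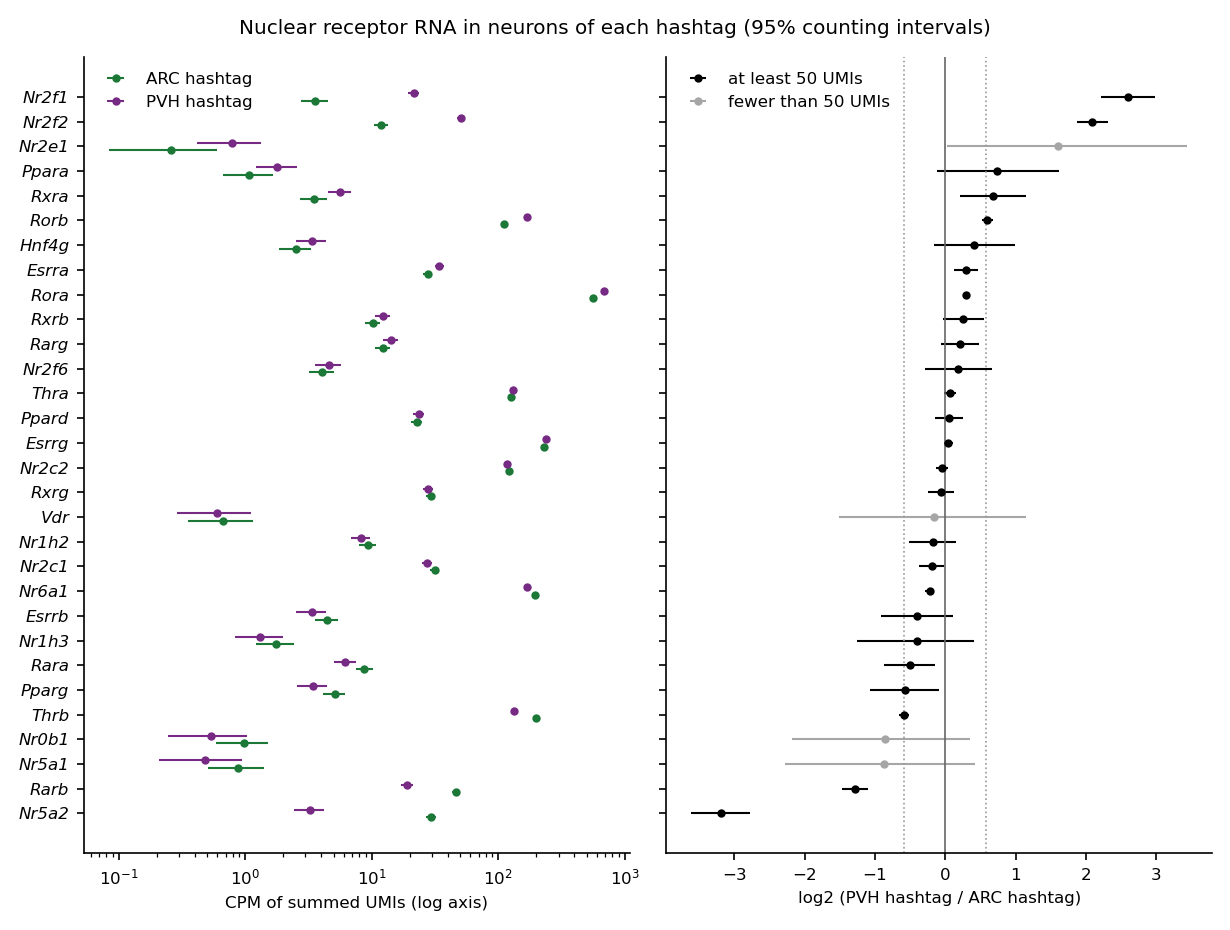
Left, CPM of each of the 30 receptors in ARC-hashtag (green) and PVH-hashtag (purple) neurons on a log axis; right, log2 of PVH over ARC, grey for receptors with fewer than 50 UMIs, with dotted lines at 1.5-fold. Bars are exact 95% counting intervals. *Nr2f1* and *Nr2f2* lie farthest right at 2.60 and 2.09 and *Nr5a2* farthest left at -3.18.

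The hashtag and the cluster moved together: 9 clusters had under 5% and 5 had over 90% PVH-hashtag nuclei. The comparison was therefore repeated within the 4 clusters that held at least 100 nuclei of each hashtag, which were cluster 2 (GABAergic, with *Lhx8* and *Onecut3*), cluster 3, cluster 4 (glutamatergic, with *Lhx9* and some *Sim1*) and the dopaminergic-like cluster 5. For each, the receptors with at least 20 UMIs in the cluster are described, beside all genes with as many. In cluster 2 the interval lay above 0 for 4 of 19 receptors (4.94% of all genes) and below 0 for 3 (4.83%). In cluster 3 it lay above 0 for 3 of 17 (6.62%) and below for 4 (5.89%). In cluster 4 it lay above 0 for 3 of 18 (5.59%) and below for 2 (6.4%), and in cluster 5 above for 4 of 19 (6.29%) and below for 1 (5.97%).

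*Nr2f2* was higher with the PVH hashtag in all 4. It was at 95.7 against 21.9 CPM in cluster 2 (log2 ratio 2.13, 1.42 to 2.93), 87.5 against 32.0 CPM in cluster 3 (1.45, 0.87 to 2.08), 27.4 against 10.4 CPM in cluster 4 (1.40, 0.20 to 2.90) and 43.2 against 6.65 CPM in the dopaminergic-like cluster (2.70, 1.70 to 3.82). *Nr2f1* was higher in the 3 clusters with 20 or more UMIs, 4.27-, 2.83- and 3.54-fold in clusters 2, 3 and 4 with intervals above no difference. The ARC-hashtag counts behind these ratios were 3, 8 and 4 UMIs. Whether finer neuron types inside these clusters were divided between the hashtags was not tested.

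*Thrb* was lower with the PVH hashtag in clusters 2, 3 and 5, with log2 ratios of -0.79 (-1.07 to -0.51), -1.33 (-1.60 to -1.06) and -1.01 (-1.39 to -0.65). In cluster 4 the ratio was -0.26 (-0.61 to 0.11). *Thra* had intervals that include 0 in all 4. *Rarb* lay below 0 in clusters 3 (-1.14) and 4 (-0.85), and its intervals included 0 in clusters 2 and 5. *Nr5a2* had enough UMIs in the dopaminergic-like cluster alone, where it was at 30.4 CPM with the PVH hashtag and 46.6 CPM with the ARC hashtag (log2 ratio -0.62, -1.32 to 0.04).

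*Rorb* did not keep its direction. It was 2.22-fold higher with the PVH hashtag in the dopaminergic-like cluster (196 against 88.3 CPM), 2.15-fold lower in cluster 2 (98.8 against 213 CPM) and 1.25-fold lower in cluster 3. Over the 4 clusters pooled its log2 ratio was -0.18, against 0.60 in all neurons. *Rxrg* was near even in all neurons (28.0 and 29.2 CPM) but 2.32-fold higher in cluster 4 and 4.05-fold lower in cluster 3 (9.52 against 38.6 CPM). *Esrrg* was 1.40-fold higher with the PVH hashtag in both clusters 2 and 3, with intervals above 0, and near even over all neurons (239 and 232 CPM).

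**Figure D4:**
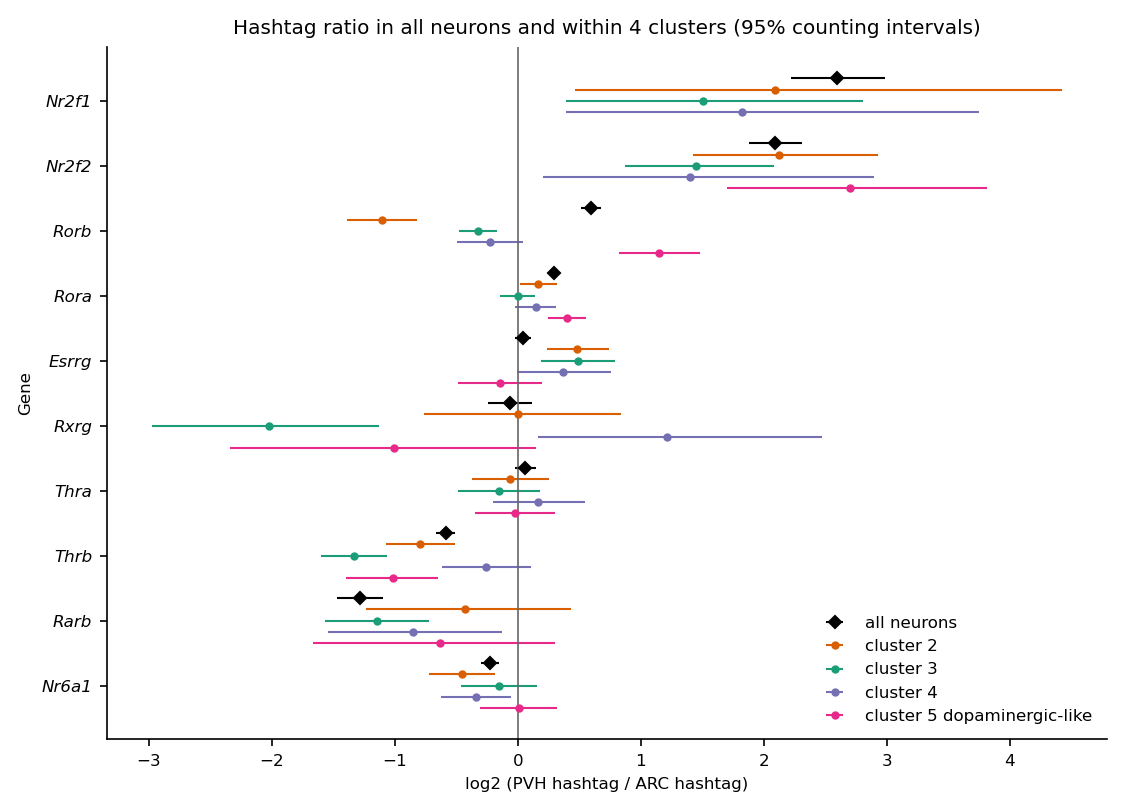
Log2 of PVH-hashtag over ARC-hashtag CPM for 10 receptors, in all neurons (black diamonds) and within each of 4 clusters (coloured points), with exact 95% counting intervals. *Nr2f1* and *Nr2f2* lie right of 0 throughout and *Thrb* left of 0, while *Rorb* lies on both sides, at -1.11 in cluster 2 and 1.15 in the dopaminergic-like cluster.

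Glutamatergic and GABAergic neurons were compared among ARC-hashtag nuclei, with clusters divided by the higher of *Slc17a6* and *Slc32a1*, which encode the vesicular transporters of glutamate and GABA. There were 1614 glutamatergic and 2135 GABAergic nuclei. Of the glutamatergic nuclei 633 were in clusters 3 and 6, where the 2 transporter genes were near even (56.1 and 46.4 CPM in cluster 3, 44.1 and 37.8 CPM in cluster 6). Of the 23 receptors with at least 50 UMIs, 3 were at least 1.5-fold higher in glutamatergic neurons, beside 4.89% of the 14225 genes tested, and 2 were at least 1.5-fold lower, beside 4.41%. The intervals of 13 of the 23 included 0, which was not counted over all genes. *Nr2f2* was at 18.8 CPM in glutamatergic and 6.71 CPM in GABAergic neurons, 2.80-fold higher (log2 ratio 1.49, 1.08 to 1.90), and *Nr2f1* was at 5.22 and 2.33 CPM (1.17, 0.43 to 1.93). The VMH-like cluster held 93 of the 155 *Nr2f2* UMIs of the glutamatergic neurons, and without it they were at 8.65 CPM (log2 ratio 0.37), under the 1.5-fold bound. With nuclei of both hashtags the log2 ratio of *Nr2f2* was -0.15, so that its direction rests on the ARC-hashtag nuclei. *Rara* was at 10.9 and 7.16 CPM, and its log2 ratio of 0.61 (0.16 to 1.06) was 0.12 with both hashtags. *Esrrb* was at 2.91 and 5.55 CPM (log2 ratio -0.93, -1.68 to -0.23). *Rxra*, with 21 and 47 UMIs, had a log2 ratio of -0.72 whose interval (-1.54 to 0.05) includes 0, and of -0.32 without clusters 3 and 6. *Thra* and *Thrb* were even between the transmitter classes, at log2 ratios of 0.04 and 0.03, with intervals that include 0.

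**Figure D5:**
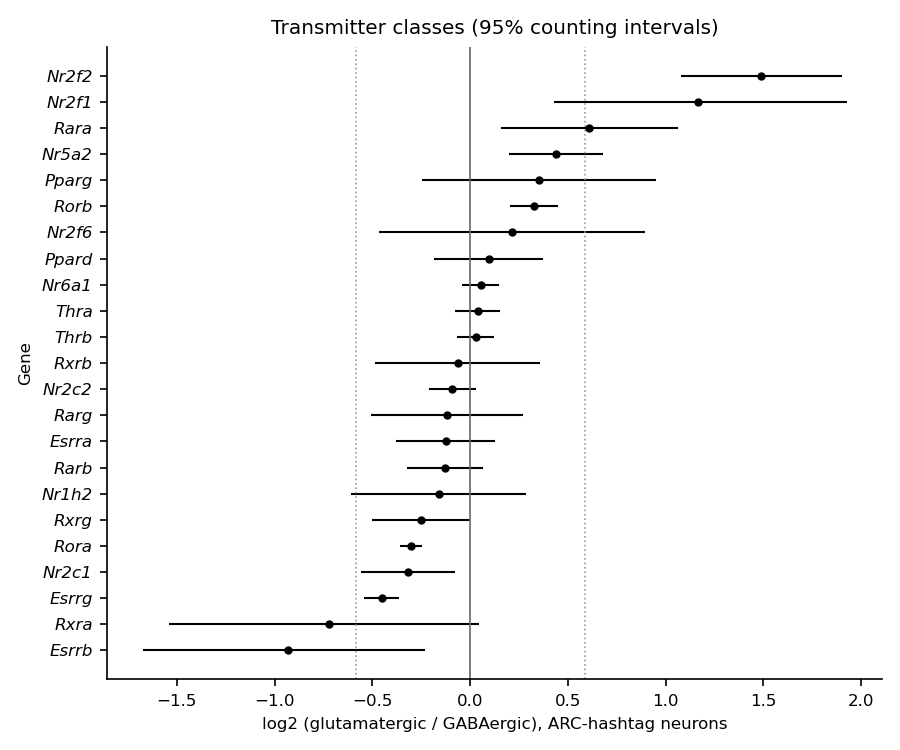
Log2 of glutamatergic over GABAergic CPM in ARC-hashtag neurons for the 23 receptors with at least 50 UMIs, with exact 95% counting intervals and dotted lines at 1.5-fold. *Nr2f2* lies highest at 1.49 and *Esrrb* lowest at -0.93, and *Thra* and *Thrb* lie at 0.04 and 0.03.

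The other 19 nuclear receptors of the mouse, most of them steroid receptors or immediate-early and clock orphans, are given for context. Of the 13 with at least 50 UMIs, 1 was at least 1.5-fold higher with the PVH hashtag (*Esr2*, 13.99 against 3.30 CPM) and 3 were lower (*Esr1*, *Pgr* and *Nr1h4*). Over all genes tested the shares were 5.53% higher and 5.31% lower. Of the 11 with at least 100 UMIs, 7 were at least 3-fold higher in their highest cluster (9.88% of all genes). *Esr1*, which encodes oestrogen receptor α, shared its highest cluster with *Nr5a2* and *Rara*, being at 490 CPM in KNDy-like neurons and 71.0 CPM in the other neurons. Of the 14 coregulators, which bind nuclear receptors to alter transcription, 2 were at least 1.5-fold higher with the PVH hashtag (5.53% of all genes). These were *Ppargc1a*, at 38.7 against 23.1 CPM, and *Tbl1xr1*, at 37.3 against 19.8 CPM. *Nrip1*, a corepressor, was the coregulator concentrated by at least 3-fold, at 161 CPM in KNDy-like neurons and 53.5 CPM in the other neurons. The share over all genes tested was 9.88%.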

How the data were processed

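The deposited matrix holds raw UMI counts per gene and nucleus, which the authors made with Cell Ranger (version 5.0 and build mm10 per the labels, 4.0.0 per the file header). Counts were processed here with Seurat 5.3.0 in R 4.3.3, after the filters of the study (its Seurat version 4): over 800 and under 5000 genes, at most 12000 UMIs and 1% mitochondrial counts per nucleus, genes in at least 3 nuclei, and hashtag calls at positive quantile 0.8. Nuclei called for both hashtags (944) were removed as doublets, and no other doublet caller was run. Those called for neither (2385) were left out, with medians of 46 ARC-hashtag and 79 PVH-hashtag counts. Leiden clustering used the resolution of the study, 0.55. Where the study gave no value, 30 components, 20 neighbours and 2000 variable genes were used, and the 8 receptors among those genes were removed. Clusters were named X-like from at least 3 markers at 1.5-fold, the first marker included, and were otherwise left unnamed.

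UMIs were summed per group. With 1 pooled sample there was no test and no p-value: a gene was called at a fixed fold of 1.5 (at least 50 UMIs) or 3 (at least 100 UMIs). Poisson, ratio and Clopper-Pearson intervals were exact (SciPy 1.17.1) and cover counting error only. They were checked on simulated Poisson counts without variation between nuclei, which does not show their coverage for the real nuclei. Neurons had 997 to 11970 UMIs each, 19415509 in ARC-hashtag and 16649179 in PVH-hashtag neurons. Other hashtag, filter, thinning, weighting, clustering and fold settings were tried. All 30 receptors are named, other genes only from lists of pathways and markers, of which 1 gene is not reported here. The receptors and lists were chosen with earlier results of these data known.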

Additional observations from a re-analysis of the deposited data

Results flagged for a closer look

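*Rorb* had opposite differences between the hashtags in 2 clusters, with a log2 ratio of PVH over ARC of 1.15 in the dopaminergic-like cluster 5 and -1.11 in cluster 2, both intervals excluding 0. *Rxrg* was likewise opposite, at 1.21 in cluster 4 and -2.02 in cluster 3. With 1 sample for each hashtag, these differences between clusters were not tested.

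The 2385 nuclei without a hashtag call entered no comparison, and the 4 receptors that differed by over 2-fold between the hashtags were detected in them above the level that 3 UMIs give (0.327 CPM). *Rarb* was at 27.6 CPM, *Nr2f1* at 16.1 CPM, *Nr2f2* at 46.5 CPM and *Nr5a2* at 9.26 CPM. Each value lay between those of the ARC-hashtag and PVH-hashtag neurons. Unlike those, the nuclei without a call were not clustered or limited to neurons, and their median depth was 3926 UMIs.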

How the results depend on the processing

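Of 71 recomputed counts of receptors, 53 were within 1.5 times the value reported. The 5 receptors higher with the PVH hashtag became 3 at the stricter hashtag call (positive quantile 0.99), 3 after thinning to 1000 UMIs per nucleus, 3 at 4 times the minimum number of UMIs, 2 within the 4 clusters that held 100 nuclei of each hashtag, 2 at a fold of 2 and, in an alternative chosen after seeing the data, 3 without cluster 3. The 3 lower became 5 after thinning and 5 at the lower UMI minimum of 25. The 3 receptors higher in glutamatergic neurons became 1 at 4 times the minimum, and the 2 lower became 0 at the stricter hashtag call, 0 at 4 times the minimum, 0 at a fold of 2, 1 at resolution 1.2, 1 with both hashtags and, in an alternative chosen after seeing the data, 1 without clusters 3 and 6. The 10 concentrated receptors became 6 at the stricter hashtag call (18 tested), 5 among ARC-hashtag nuclei alone and 16 at a fold of 2. Without nuclei that had an astrocyte marker UMI, also chosen after seeing the data, they stayed 10 in number.

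Of 248 recomputed values of single receptors, 209 stayed within the interval reported, 34 moved and 5 changed sign. The 2 alternatives that only set which genes are tested are not among them. Within the 4 clusters *Rorb* became -0.18 and *Ppara* -0.27 in log2 PVH over ARC, and *Ppara* became -0.29 after thinning. With both hashtags the log2 glutamatergic over GABAergic ratio became 0.14 for *Rxra* and -0.15 for *Nr2f2*, which without the VMH-like cluster 12, also left out after seeing the data, was 0.37. *Nr2f1* and *Nr2f2* stayed higher with the PVH hashtag under all 11 alternatives (log2 ratios 2.31 to 2.68 and 1.80 to 2.22), and *Nr5a2*, *Rarb* and *Thrb* stayed lower (-5.46 to -2.32, -1.49 to -0.84 and -0.85 to -0.43). The causes were not tested. Depth limits the receptors under 100 UMIs, for which a level in a single cluster rests on a few counts. No paired analysis was possible because the groups come from 1 pooled sample without replicate numbers.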
